A study of Mus musculus with 20 samples.

Results

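Genes of cholesterol synthesis and its control were examined as a group of 7 among the 57010 genes counted in mouse liver and kidney. The genes were picked by name: the synthesis enzymes Hmgcs1, Idi1, Fdps, Sqle and Cyp51 and the regulators Insig1 and Srebf2. Each symbol was matched to 1 Ensembl identifier in the count table, and all 20 libraries were used. Although the group is known as one of synthesis and uptake, it holds 5 enzymes and 2 regulators and no receptor, so that uptake genes were read from a separate list.

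Cells make cholesterol from acetyl-CoA through mevalonate, isoprenoid units, squalene and lanosterol, and the liver is a main site of this synthesis and of the export of sterol in lipoproteins and bile. The transcription factor SREBP-2, the product of Srebf2, is held in the endoplasmic reticulum by SCAP and INSIG proteins when sterols are plentiful, and it moves to the Golgi for cleavage and then to the nucleus when they are scarce. Its targets include the enzymes of the route, Insig1 and Srebf2 itself.

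RNA came from 12-month-old male mice of the UM-HET3 stock, which were genetically heterogeneous, so that each mouse differed in genotype from the next. For 28 days, subcutaneous osmotic minipumps gave 6 mice per tissue the 7c mixture, with repsox, tranylcypromine, DZNep, CHIR99021, forskolin and TTNPB at 0.1 mg/kg/day each and valproate at 1 mg/kg/day. The other 4 mice per tissue received the vehicle, DMSO and PEG300 at 50% each, and all mice carried a pump and were housed alone after surgery. A library of polyadenylated RNA was made per tissue sample, and the labels do not say which liver and kidney came from the same animal.

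Library totals were 28383359 to 30571119 counts in 7c livers, 31670440 to 34153084 in vehicle livers, 33003173 to 64872451 in 7c kidneys and 27855849 to 39651123 in vehicle kidneys, so that each 7c liver had fewer counts than any vehicle liver. The tissue labels matched their markers: 5 hepatocyte genes summed to 66600 to 98500 CPM (read counts scaled to the size of the library) in livers and 79.9 to 326 CPM in kidneys, and 5 kidney genes summed to 33500 to 69800 CPM in kidneys and at most 0.114 CPM in livers. Summed red cell genes ranged over 428 to 577 CPM in vehicle and 393 to 1270 CPM in 7c livers, and over 308 to 1310 CPM and 471 to 2260 CPM in the kidneys. Macrophage genes summed to 97.9 to 286 CPM over the 4 groups.

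The promoters of the genes are shown because the enzymes varied together among the livers described later. RefSeq's table for GRCm38.p6 held the window of 5 of the 7 genes, Hmgcs1, Idi1, Cyp51, Insig1 and Srebf2, and the 250 bases before the annotated start are given 5′ to 3′ on the strand of the gene. Capitals mark TCACNCCAC, a core of the sterol regulatory element bound by SREBPs, CCAAT, which NF-Y binds, GGGCGG, which Sp1 binds, and CACGTG, the E-box, each searched on both strands, so that ATTGG and CCGCCC are matches on the other strand.
Hmgcs1, chr13:119690101-119690350, plus strand: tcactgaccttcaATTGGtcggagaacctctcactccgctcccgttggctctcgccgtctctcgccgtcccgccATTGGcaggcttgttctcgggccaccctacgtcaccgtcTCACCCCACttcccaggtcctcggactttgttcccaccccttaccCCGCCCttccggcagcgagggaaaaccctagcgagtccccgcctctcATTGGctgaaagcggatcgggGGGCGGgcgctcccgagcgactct
Idi1, chr13:8885356-8885605, plus strand: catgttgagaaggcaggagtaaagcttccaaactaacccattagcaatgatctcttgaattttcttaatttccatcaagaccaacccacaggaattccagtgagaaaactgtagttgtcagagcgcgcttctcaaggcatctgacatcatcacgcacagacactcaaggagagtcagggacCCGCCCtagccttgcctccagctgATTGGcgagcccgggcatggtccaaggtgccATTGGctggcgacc
Cyp51, chr5:4104698-4104947, minus strand: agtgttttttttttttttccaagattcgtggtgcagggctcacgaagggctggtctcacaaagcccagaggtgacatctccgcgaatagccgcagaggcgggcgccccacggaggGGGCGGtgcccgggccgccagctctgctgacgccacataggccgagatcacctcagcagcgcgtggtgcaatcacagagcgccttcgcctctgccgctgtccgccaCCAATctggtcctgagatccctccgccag
Insig1, chr5:28071162-28071411, plus strand: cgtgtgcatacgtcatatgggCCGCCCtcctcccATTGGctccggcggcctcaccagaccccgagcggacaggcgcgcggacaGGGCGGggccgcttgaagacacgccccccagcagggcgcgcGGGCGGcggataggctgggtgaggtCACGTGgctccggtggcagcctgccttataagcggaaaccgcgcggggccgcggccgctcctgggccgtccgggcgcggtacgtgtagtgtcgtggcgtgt
Srebf2, chr15:82147019-82147268, plus strand: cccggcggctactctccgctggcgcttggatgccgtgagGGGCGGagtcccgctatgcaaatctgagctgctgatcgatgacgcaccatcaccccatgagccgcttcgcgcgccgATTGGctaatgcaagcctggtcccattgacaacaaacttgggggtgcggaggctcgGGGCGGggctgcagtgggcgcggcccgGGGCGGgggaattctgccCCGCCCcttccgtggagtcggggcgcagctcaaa
The Hmgcs1 window held the sterol element core once, 137 bases before the start, and 3 CCAAT letters. Over all 32851 windows of the table, 1.05% held that core. It was in 1 of the 5 printed windows and in 0 of the 13 other synthesis enzymes that had a window. An enzyme counted where any of its windows held the letters. Dhcr7 had matches in windows 1, 2 and 3, so that counts of enzymes and shares of windows are unlike measures. A looser form, TCACNNNAC, which includes every match of the first, was in 2 of the 5 windows (Hmgcs1 and Insig1). It was in 4 of the 13 enzymes and in 9.44% of all windows. All 5 windows held CCAAT and all 5 held GGGCGG, beside 12 of 13 enzymes for each and 33.8% and 32.7% of all windows. The E-box was in the Insig1 window alone of the 5, in 3 of the 13 enzymes and in 6.02% of all windows. These letters are a description and not a test of binding.

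**Figure D1:**
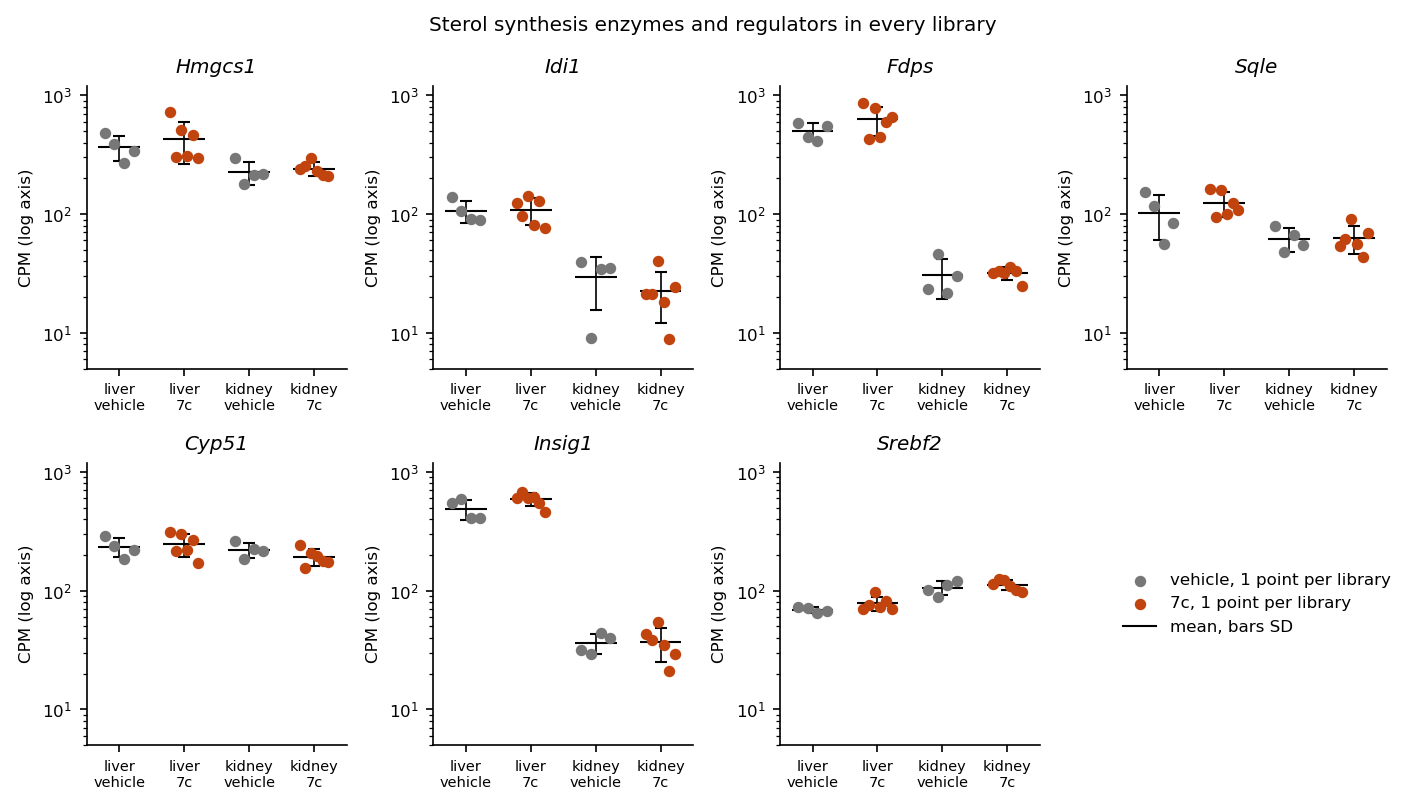
Level of each of the 7 genes in CPM on a log axis, with 1 point per library, the group mean as a line and the SD as bars (4 vehicle and 6 7c libraries per tissue, scaled within each tissue). Fdps and Insig1 stood far higher in liver than in kidney, and 7c and vehicle libraries overlapped for every gene.

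The genes were ordered by level within each tissue first. Levels between genes were compared as CPM per kilobase of the exons of all annotated transcripts joined, which are means ± SD of the 4 vehicle mice and depend on which transcripts are in use. In vehicle liver, Fdps, which makes farnesyl diphosphate, stood at 103 ± 17.1 CPM per kb, and Insig1, which retains the SCAP complex, at 100 ± 19.3. These 2 levels differed by less than their SD. They were followed by Hmgcs1, the cytosolic HMG-CoA synthase, at 70.2 ± 17.0, and by Cyp51, the lanosterol demethylase, at 39.2 ± 7.12 CPM per kb. Idi1, the isopentenyl diphosphate isomerase, reached 29.9 ± 6.28, Sqle, the squalene epoxidase, 11.6 ± 4.72, and Srebf2 7.38 ± 0.401 CPM per kb, and the last 2 also lay within the SD of Sqle.

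The order in vehicle kidney was different. Hmgcs1 and Cyp51 led with 43.1 ± 9.45 and 37.3 ± 5.28 CPM per kb, a difference smaller than the SD of Hmgcs1. Srebf2 followed at 11.3 ± 1.49 and Idi1 at 8.33 ± 3.92 CPM per kb. Insig1 stood at 7.42 ± 1.41, Sqle at 7.00 ± 1.56 and Fdps at 6.21 ± 2.27 CPM per kb. Idi1 lay within its SD of Srebf2 and of these 3 genes, which could not be ordered either.

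Vehicle livers were then compared with vehicle kidneys, which shows the state of the pathway without the compounds. Of the 7 genes, 6 were higher in liver and 0 lower, where 24.2% of the 19025 tested genes were higher and 28.0% lower, 52.2% in all (edgeR quasi-likelihood F-test, adjusted p below 0.05). In CPM scaled over both tissues, Fdps was 730, 569, 504 and 672 in vehicle livers 1 to 4 and 18.6, 37.1, 17.3 and 24.1 in vehicle kidneys 1 to 4. Every liver lay far above every kidney, and the log2 difference was 4.66 (95% interval 4.06 to 5.27, adjusted p = 7.98e-08 by edgeR). Insig1 was 676, 750, 499 and 493 CPM in the livers and 25.0, 23.8, 34.9 and 31.9 CPM in the kidneys. The 2 tissues were again well apart, by 4.38 on the log2 scale (3.90 to 4.86, adjusted p = 2.05e-08 by edgeR). In these whole-tissue samples, a smaller share of the expressing cells and less RNA per cell cannot be told apart.

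Idi1 was 170, 134, 111 and 108 CPM in vehicle livers and 31.5, 7.25, 27.2 and 28.2 CPM in vehicle kidneys, on the scale over both tissues. The kidneys did not reach the livers, and vehicle kidney 2 stood below the other 3 kidneys. The log2 difference of Idi1 was 2.47 (1.64 to 3.30, edgeR adjusted p = 0.000216). Hmgcs1 and Sqle differed by 1.33 (0.86 to 1.80, adjusted p = 0.000309) and 1.35 (0.72 to 1.99, adjusted p = 0.0021) on the log2 scale. Hmgcs1 was 324 to 594 CPM in livers and 145 to 236 CPM in kidneys, and Sqle 68.3 to 190 CPM and 38.6 to 63.2 CPM, without overlap for either gene.

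Cyp51 and Srebf2 depended on how libraries were scaled. TMM, the scaling in use, allows for a few abundant transcripts that take a large share of a library. With it, Cyp51 was 224 to 354 CPM in vehicle livers and 149 to 208 CPM in vehicle kidneys, a log2 difference of 0.70 (0.33 to 1.07, edgeR adjusted p = 0.00489). With the library total alone, a scaling chosen after the data were seen, the Cyp51 difference was 0.09 (adjusted p = 0.673). Srebf2 was 78.5 to 91.3 CPM in livers and 71.1 to 96.7 CPM in kidneys, and its log2 difference was 0.01 (-0.29 to 0.30, adjusted p = 0.969). With the library total alone it was -0.60 (adjusted p = 0.00539), lower in liver. That scaling moved the median of all genes by -0.59 and the share of calls that were higher in liver from 46.3% to 22.7%. The other 5 genes stayed higher in liver, by 0.72 for Hmgcs1, 0.73 for Sqle, 1.83 for Idi1, 3.76 for Insig1 and 4.09 for Fdps.

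**Figure D2:**
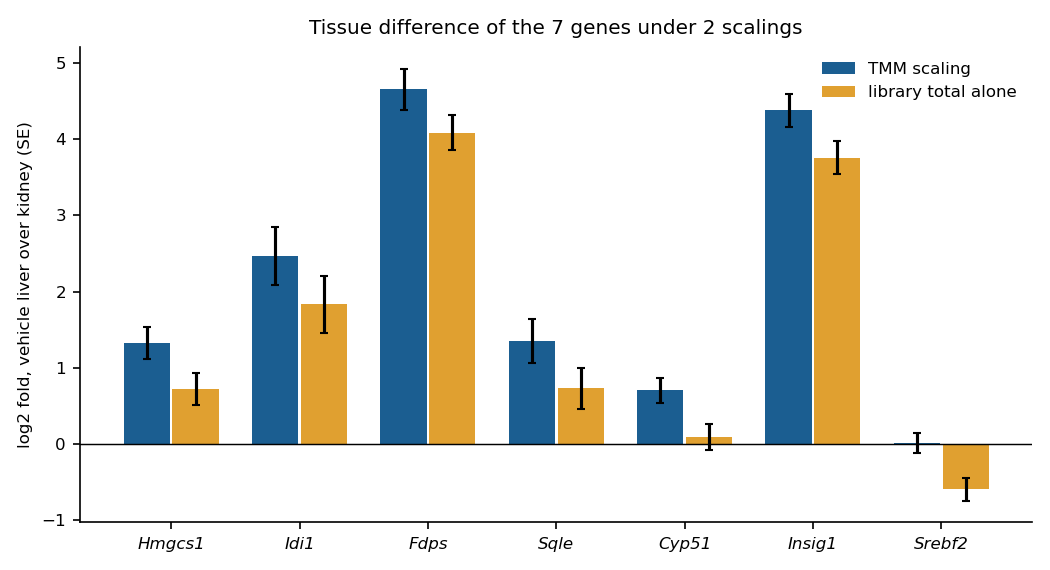
Log2 fold of vehicle liver over vehicle kidney for the 7 genes (4 libraries each), with bars for the estimate and whiskers for the SE, under TMM scaling and under the library total alone. Fdps and Insig1 stood at 3.76 or more under both, and Cyp51 and Srebf2 changed side of the threshold with the scaling.

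Most of the remaining pathway shared the direction of the enzymes. Among 14 other synthesis enzymes, 12 were higher in vehicle liver and 0 lower, with a median log2 difference of 2.81 beside -0.11 over all genes tested. Sc5d, the lathosterol desaturase, stood out with 5.93 and Tm7sf2, a sterol reductase, with 4.53. The exceptions were Mvd, the mevalonate diphosphate decarboxylase, at -0.03, and Lbr, the lamin B receptor with sterol reductase activity, at -0.49 (adjusted p = 0.925 and 0.155 by edgeR). With the library total alone, 11 were higher and 2 lower. Of 10 other sterol regulators, 5 were higher and 3 lower in liver, and with the library total alone 5 and 4.

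Uptake and transport genes were also mostly higher in vehicle liver, 6 of 7 tested, with 0 lower (1 lower with the library total alone). Scarb1, the HDL receptor, differed by 4.55. Of 8 efflux and esterification genes, 5 were higher and 2 lower. The smallest p among them belonged to Abcg8, a subunit of the biliary sterol transporter, at 9.58, Lcat, the plasma cholesterol acyltransferase, at 9.09, and Soat2, a cholesterol esterifying enzyme, at 8.20 on the log2 scale. Abcg8 and Soat2 had 4 to 12 counts in each vehicle kidney, so that their folds rest on few reads.

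The effect of 7c in liver was the next comparison. None of the 7 genes passed the test in liver, where 0.00666% of the 15012 tested genes did (1 gene, and 565 at an unadjusted p under 0.05), and the adjusted p was 1.00 for each of the 7 (edgeR). At an unadjusted p under 0.05 the count was also 0 of 7, and DESeq2 and limma-voom called 0 of 7. Their estimates were all above 0, between 0.03 and 0.32 on the log2 scale with a median of 0.23, beside 50.4% of all tested genes above 0 with a median of 0.0017. Because the enzymes rose and fell together among mice, the 7 estimates do not count as 7 separate observations. Without vehicle liver 3, 5 of 7 estimates were above 0, with a median of 0.10.

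The early enzymes were read first. Hmgcs1, which condenses acetoacetyl-CoA with acetyl-CoA, was 480, 392, 267 and 339 CPM in vehicle livers 1 to 4 and ran from 296 through a median of 385 to 720 CPM in 7c livers. Only 7c livers 1 and 3 exceeded every vehicle liver, and the groups overlapped. The log2 fold change was 0.23 (-0.31 to 0.77, unadjusted p = 0.375 by edgeR), and it was 0.02 without 7c liver 1.

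Idi1, which isomerises the isoprenoid unit, was 138, 106, 91.6 and 89.1 CPM in vehicle livers and 76.8 to 142 CPM with a median of 110 CPM in 7c livers. Of the 7c livers, 1 lay above and 2 below all vehicle livers. The log2 fold change of 0.03 (-0.37 to 0.43) became -0.06 without 7c liver 3. Fdps was 590, 447, 415 and 553 CPM in vehicle livers and 433 to 859 CPM with a median of 626 CPM in 7c livers. It lay above every vehicle liver in 4 of 6 7c livers, with a log2 fold change of 0.32 (-0.09 to 0.74, unadjusted p = 0.113 by edgeR), and 0.21 without 7c liver 1.

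Sqle and Cyp51 act later in the route. Sqle, which opens the sterol branch by oxidising squalene, was 153, 117, 56.3 and 84.5 CPM in vehicle livers and 95.2 to 162 CPM with a median of 116 CPM in 7c livers. Again 7c livers 1 and 3 alone passed the highest vehicle liver, and the log2 fold change was 0.28 (-0.24 to 0.80). It was 0.08 without vehicle liver 3 and 0.54 without vehicle liver 1. Cyp51 was 286, 239, 185 and 221 CPM in vehicle livers and 171 to 313 CPM with a median of 243 CPM in 7c livers, with 7c livers 1 and 3 above and 7c liver 6 below all vehicle livers. Its log2 fold change was 0.09 (-0.27 to 0.45), -0.0035 without vehicle liver 3 and 0.20 without vehicle liver 1.

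The regulators had the narrowest spread. Insig1 was 546, 590, 411 and 406 CPM in vehicle livers and 463 to 678 CPM with a median of 603 CPM in 7c livers. Of these, 7c livers 1 to 4 lay above all vehicle livers. The log2 fold change of Insig1, 0.26 (-0.02 to 0.55), had the smallest unadjusted p of the 7, 0.07 by edgeR. Srebf2 was 72.5, 71.7, 64.7 and 67.0 CPM in vehicle livers and 69.3 to 97.6 CPM with a median of 73.8 CPM in 7c livers, with 3 of 6 above every vehicle liver. Its log2 fold change was 0.18 (-0.05 to 0.40), and 0.10 without 7c liver 3.

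**Figure D3:**
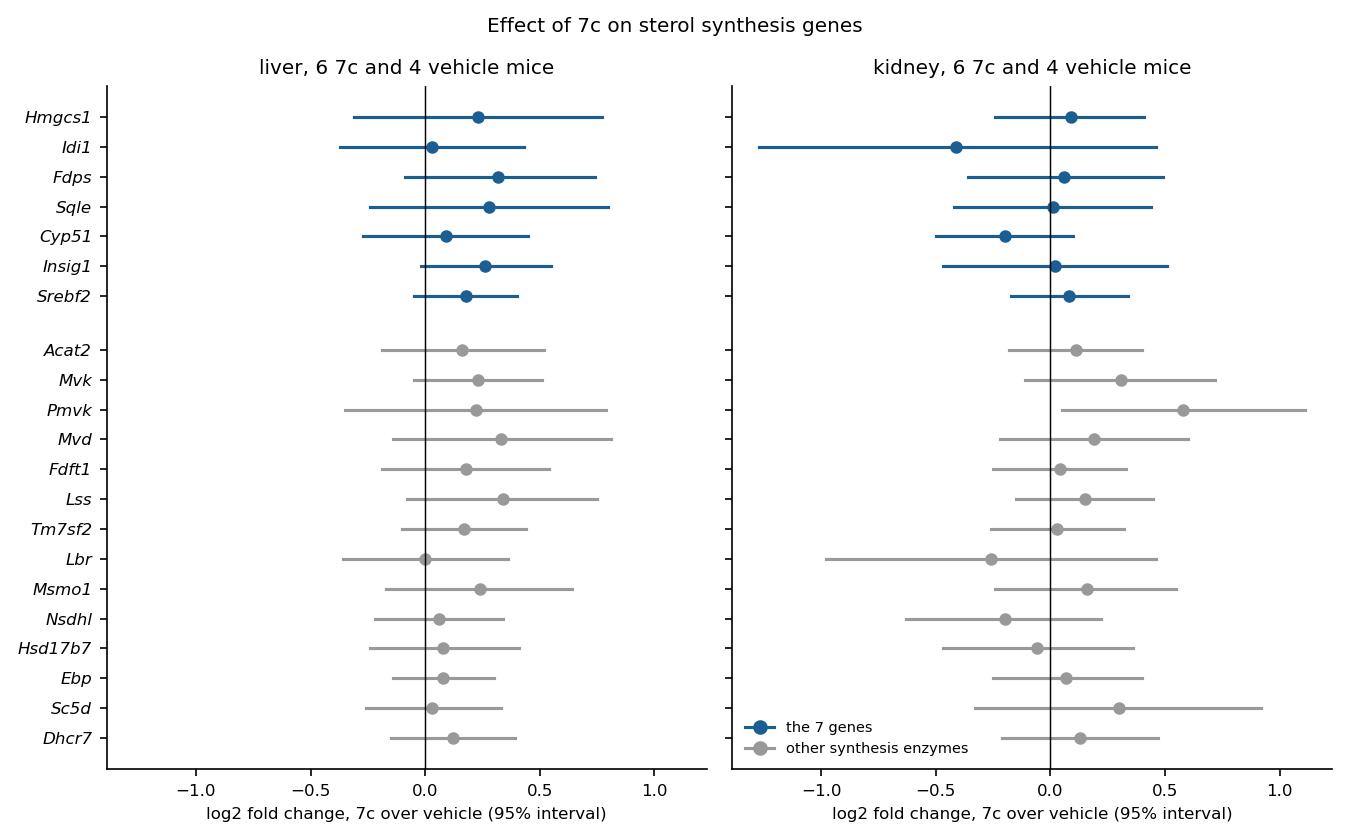
Log2 fold change of 7c over vehicle with its 95% interval in liver and kidney (6 7c and 4 vehicle mice each) for the 7 genes in blue and 14 other synthesis enzymes in grey. Liver estimates lie at or to the right of 0 and their intervals all include 0, and the kidney estimates lie on both sides.

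Other synthesis enzymes in liver lay at or above 0. The 14 estimates had a median of 0.17 on the log2 scale and 0 of 14 passed the test. Lbr was at 0.00, and Lbr, Nsdhl and Sc5d fell below 0, to -0.09, -0.03 and -0.03, under the alternatives run. Lss, the lanosterol synthase, and Mvk, the mevalonate kinase, had the smallest p, with 0.34 and 0.23 (unadjusted p = 0.101 and 0.103 by edgeR). Lss was 0.20 without vehicle liver 4 and 0.52 without vehicle liver 1. The smallest p of the sterol lists belonged to Insig2, the homologue of Insig1, at -0.29 (-0.56 to -0.03, unadjusted p = 0.0341, adjusted p = 1.00 by edgeR), opposite in sign to Insig1. Abcg1, a sterol exporter, stood at 0.47 (unadjusted p = 0.0742), and at 0.31 without vehicle liver 1. None of 10 regulators, 7 uptake genes and 8 efflux genes passed the test, and their medians were -0.05, 0.07 and -0.03.

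A 7c liver stood apart in a way the groups do not explain. Liver 6 of the 7c group held 622 CPM of 6 skeletal muscle genes in sum, where the vehicle livers held at most 1.28 CPM. Without it, all 7 estimates remained above 0, between 0.11 and 0.32, and 0 passed the test.

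In kidney, 7c moved none of the 7 genes past the threshold, nor any of the 17749 genes tested (0.0%, with 463 at an unadjusted p under 0.05; edgeR). Of the 7 estimates, 5 were above and 2 below 0, with a median of 0.02, and adjusted p was 0.997 or more. Leaving out vehicle kidney 2 left 2 of 7 above 0, with a median of -0.06. DESeq2, limma-voom and the likelihood ratio test of edgeR also called 0 of the 7, and they called 18, 2 and 14 of all genes.

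Idi1 had the largest kidney estimate and the widest interval, -0.41 (-1.27 to 0.46). It was 39.7, 9.02, 34.3 and 35.3 CPM in vehicle kidneys 1 to 4 and 8.89 to 40.0 CPM with a median of 21.3 CPM in 7c kidneys. Of the 6 7c kidneys, 4 lay within the vehicle range, 1 just below and 1 just above, while vehicle kidney 2 was far below its group. Without that kidney the Idi1 estimate was -0.70, and without vehicle kidney 1 it was -0.23. With the replicate number as a block it was -0.12. That block joins different mice that share only a number, and 7c kidneys 5 and 6 have no vehicle partner in it. Reads of Idi1 could be shared with 5 annotated pseudogenes, which had at most 32 counts per kidney and 68 per liver, beside at least 284 of Idi1 itself.

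Fdps was 23.5, 46.1, 21.8 and 30.2 CPM in vehicle kidneys and 24.6 to 35.5 CPM with a median of 32.7 CPM in 7c kidneys. All 6 7c kidneys lay inside the vehicle range, whose top was vehicle kidney 2. The log2 fold change was 0.06 (-0.36 to 0.49), and 0.34 without that library. Cyp51 was 261, 185, 222 and 216 CPM in vehicle kidneys and 156 to 244 CPM in 7c kidneys, with 3 of 6 below every vehicle kidney and a log2 fold change of -0.20 (-0.50 to 0.10, unadjusted p = 0.179 by edgeR), and -0.11 without vehicle kidney 1.

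The other 4 genes were close to level. Hmgcs1 was 180 to 297 CPM in vehicle and 208 to 299 CPM in 7c kidneys, with a log2 fold change of 0.09 (-0.24 to 0.41). Sqle was 48.0 to 79.4 and 43.8 to 91.5 CPM, at 0.01 (-0.42 to 0.44). Insig1 was 29.5 to 44.0 and 20.9 to 54.3 CPM, at 0.02 (-0.47 to 0.51), and Srebf2 88.4 to 121 and 97.6 to 126 CPM, at 0.08 (-0.17 to 0.34). With a replicate left out, Hmgcs1 ran from -0.0028 to 0.24, Sqle from -0.13 to 0.15, Insig1 from -0.12 to 0.14 and Srebf2 from 0.01 to 0.16, with the lowest values of Hmgcs1 and Srebf2 without vehicle kidney 2. For each of the 4 the groups overlapped and the interval reached from a fall to a rise.

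Other enzymes in kidney had 11 of 14 estimates above 0, with a median of 0.12, and 0 of 14 passed the test. Pmvk, the phosphomevalonate kinase, had 0.58 (0.05 to 1.11, unadjusted p = 0.0332, adjusted p = 0.997 by edgeR), and 0.92 without vehicle kidney 2. Mvk followed with 0.31, then Srebf1, which encodes the SREBP of fatty acid synthesis, with 0.25, and Scarb1 with 0.16 (unadjusted p = 0.132, 0.239 and 0.244). With a replicate left out, Mvk ran from 0.21 without 7c kidney 5 to 0.50 without vehicle kidney 2, Srebf1 from 0.11 without vehicle kidney 2 to 0.39 without vehicle kidney 3, and Scarb1 from 0.06 without vehicle kidney 1 to 0.25 without vehicle kidney 2. None of the tested regulators, uptake genes or efflux genes (10, 7 and 6) passed.

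Summed over 7 adipocyte genes, the markers of fat cells, vehicle kidneys held 37.4 to 49.6 CPM and 7c kidneys 58.5 to 154 CPM, without overlap. All 7 had an unadjusted p under 0.05 and none passed after adjustment. Hepatocyte genes summed to 205 to 296 CPM in vehicle and 79.9 to 326 CPM in 7c kidneys, and all 5 had estimates below 0, with a median of -0.94 on the log2 scale, 2 at an unadjusted p under 0.05 and none past the adjusted threshold (edgeR). In sum, 6 adrenal genes came to 2.98 to 4.71 and 2.22 to 4.40 CPM, with Cyp11b1 and Cyp11b2 at 0 counts in the vehicle kidneys. Their part in the kidney values of the 7 genes was not tested.

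The difference between the 2 tissues in the effect of 7c was tested directly over the 14163 genes measured in both. None of the 7 passed, where 0.00706% of all genes did (1 gene, and 353 at an unadjusted p under 0.05), and the adjusted p was 1.00 for each (edgeR). The liver effect exceeded the kidney effect by 0.08 to 0.43 on the log2 scale for all 7, with a median of 0.25, beside 49.8% of all tested genes above 0. The median was 0.05 without replicate 3 of the vehicle group, and without replicate 1 of the 7c group it was 0.14 with 6 of 7 above 0. Without replicate 2 and without replicate 4 of the vehicle group 6 of 7 were also above 0. Idi1 had the largest difference, 0.43 (-0.55 to 1.40), and Cyp51, at 0.28 (-0.20 to 0.76), the smallest unadjusted p, 0.243. The Idi1 difference was 0.20 without replicate 5 of the 7c group and 0.75 without replicate 2 of the vehicle group. That of Cyp51 was 0.18 without replicate 3 and 0.39 without replicate 2 of the vehicle group. Of the other sterol lists, Scarb1 at -0.34 (unadjusted p = 0.0627, and -0.13 without vehicle replicate 1), Rnf145, a ubiquitin ligase of sterol sensing, at 0.28 (0.225) and the oxysterol receptor gene Nr1h2 at -0.28 (0.267) had the smallest p among the genes reported of those lists, followed by Abcg1 at 0.33 (0.323), and none passed the test. With a replicate left out, Rnf145 ran from 0.08 without vehicle 3 to 0.42 without vehicle 1, Nr1h2 from -0.51 without vehicle 2 to -0.15 without vehicle 4, and Abcg1 from 0.12 without vehicle 3 to 0.61 without vehicle 4.

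The spread among mice of the same group differed between the genes. In liver, the SD of log2 CPM within groups was 0.47 for Hmgcs1, 0.47 for Sqle, 0.36 for Fdps, 0.34 for Idi1 and 0.31 for Cyp51, beside a median of 0.30 over all tested genes, and 50.7% to 67.6% of genes had a smaller SD. The regulators varied less, Insig1 by 0.23 and Srebf2 by 0.15, a smaller SD than in most genes. In kidney, Idi1 had an SD of 0.83, larger than 88.8% of tested genes, and Insig1 of 0.41, beside a median of 0.35. Sqle, Fdps, Hmgcs1, Cyp51 and Srebf2 had 0.34, 0.33, 0.24, 0.22 and 0.17, all below that median.

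Enzymes rose and fell together from liver to liver. With the group means removed, Pearson's r over the 10 livers was above 0 for all 10 pairs of the 5 enzymes, from 0.57 for Idi1 with Fdps to 0.93 for Hmgcs1 with Cyp51 (rho = 0.99), with a median of 0.81. Hmgcs1 with Cyp51 had 0.97 without the 2 livers farthest from the median, and Idi1 with Fdps 0.38. Pairs with Insig1 or Srebf2 were looser, with a median of 0.44, from -0.18 for Fdps with Insig1 to 0.69 for Idi1 with Srebf2. Without the 2 farthest livers, Hmgcs1 and Cyp51 with Srebf2 rose from 0.34 and 0.52 to 0.79 and 0.83. Fdps with Insig1 rose to 0.17, and the other such pairs fell, Idi1 with Srebf2 to 0.46. These are descriptions over 10 libraries, and the values of 1 library share its depth and scaling.

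The mean scaled deviation of the 7 genes placed each liver on this shared axis. It was 0.98, 0.36, -0.98 and -0.36 in vehicle livers 1 to 4 and 0.78, -0.50, 1.08, -0.70, 0.29 and -0.96 in 7c livers 1 to 6. Since group means were removed, values on both sides of 0 in each group follow from the centring and say nothing about 7c. Liver 3 of the vehicle group and liver 6 of the 7c group were lowest, and liver 3 of the 7c group highest.

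**Figure D4:**
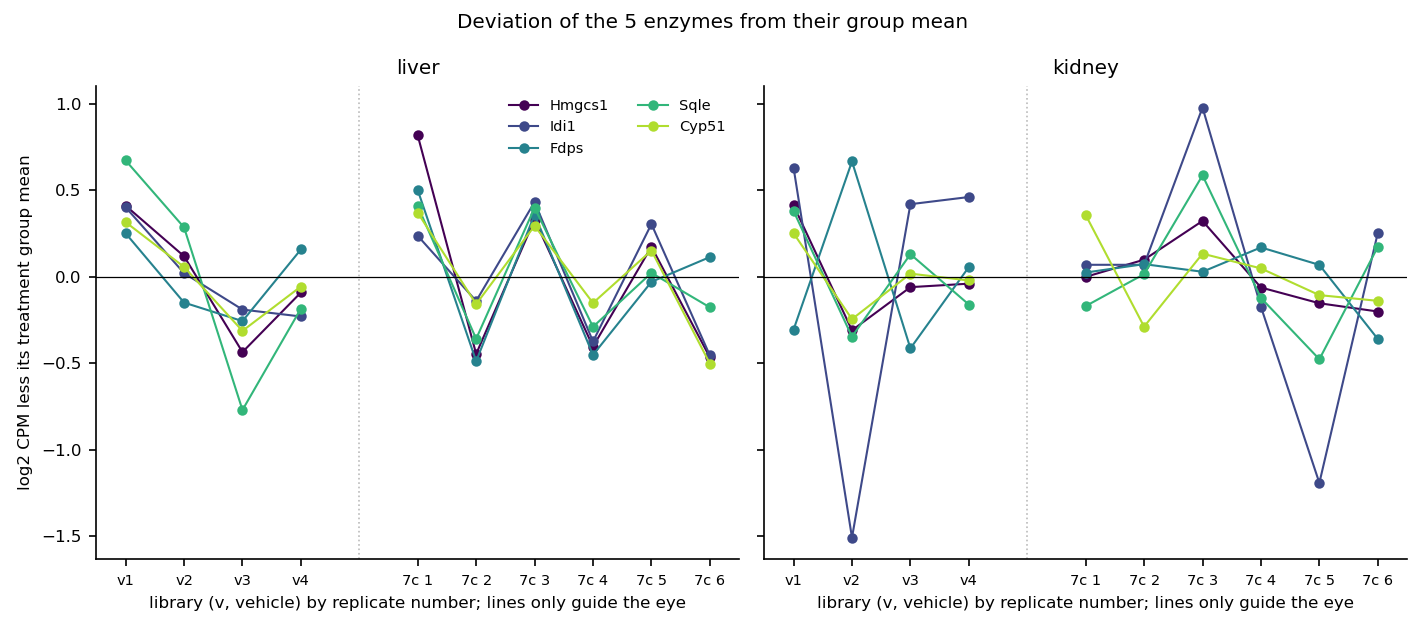
Log2 CPM of the 5 enzymes less the mean of their treatment group in each library, vehicle libraries 1 to 4 and 7c libraries 1 to 6 by replicate number, with lines only to guide the eye. In liver the 5 enzymes move as a bundle, and in kidney Idi1 swings widely and Fdps runs against the other 4 in vehicle kidney 2.

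Other synthesis enzymes followed the same axis in liver. Of the 14, 10 had r of at least 0.7 with the mean deviation of the 7, beside 1.95% of all tested genes, and the median over the 14 was 0.78. Msmo1, the sterol C4-methyl oxidase, was the gene most like it (r = 0.968, rho = 0.964), at 211 to 330 CPM in vehicle and 239 to 442 CPM in 7c livers. Mvd, Lss and Fdft1, the squalene synthase, had 0.91, 0.90 and 0.89. Tm7sf2, Nsdhl and Lbr followed it less, with 0.55, 0.30 and 0.20. The next genes by r were Col4a5, Cfap251, 9130204K15Rik and Wtip, with 0.965, 0.938, 0.931 and 0.922, all with a mean under 2 CPM.

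Regulators of the lists took both signs. Of the 10, 3 had r of at most -0.5 and 1 of at least 0.7, beside 9.33% and 1.95% of all tested genes, and of 8 efflux genes 1 and 0. Nr1h3, which encodes the oxysterol receptor LXR alpha, had r of -0.79 with the mean of the 7, Srebf1 -0.66, Mbtps2, which encodes a protease that activates SREBPs, -0.53, and Abca1, an exporter that LXRs induce, -0.53, while the exporters Abcg1, Abcg5 and Abcg8 had -0.11, 0.03 and -0.17. Mylip, a ubiquitin ligase, had 0.75 and Insig2 0.44. None of the 7 uptake genes reached 0.7, and their median was -0.13.

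Kidney libraries showed another arrangement. The 4 enzymes other than Fdps had 6 of 6 pairs above 0, from 0.37 for Sqle with Cyp51 to 0.84 for Sqle with Idi1. Fdps ran against all 6 other genes, from -0.15 with Insig1 to -0.68 with Idi1. Insig1 with Srebf2 had 0.73. Of 14 other enzymes, 4 had r of at least 0.7 with the mean of the 7 and 5 had r of at most -0.5, beside 11.8% and 24.8% of all tested genes. Among the genes most like the mean were Mta2, Agap1, Pabpn1 and Galnt1, with r of 0.967, 0.961, 0.956 and 0.948, none of them in the lists.

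A library property moved with these kidney values. The length slope, the change in log2 CPM per doubling of exon length after each gene's median over the libraries of the tissue was subtracted, was -0.083 in vehicle kidney 2 and -0.091 in 7c kidney 5, and -0.039 to 0.085 in the others. Over the 10 kidneys, with group means removed, r with this slope was 0.94 for Idi1, 0.89 for Sqle, 0.70 for Insig1, 0.63 for Hmgcs1, 0.59 for Srebf2, 0.31 for Cyp51 and -0.71 for Fdps. Without the 2 kidneys farthest from the median slope, Idi1 and Sqle had 0.84 and 0.83, Fdps -0.51, Insig1 0.38, Hmgcs1 0.37, Srebf2 0.15 and Cyp51 -0.13. An r of 0.7 or more in size was reached by 41.4% of all kidney genes and 7.73% of liver genes. In liver the slope ran from -0.049 in 7c liver 1 to 0.067 in vehicle liver 3, with r of -0.78 for Fdps, -0.56 for Hmgcs1, -0.55 for Sqle, -0.37 for Cyp51, -0.13 for Idi1, 0.10 for Srebf2 and 0.13 for Insig1. Vehicle kidney 2 and 7c kidney 5 also had the highest sums of their groups for 4 marker lists. These were red cell genes (1310 and 2260 CPM), kidney genes (61000 and 69800), macrophage genes (147 and 160) and adipocyte genes (49.6 and 154). For hepatocyte, adrenal and skeletal muscle genes this did not hold in both groups. The part of the slope or of these cell types in the levels was not tested.

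**Figure D5:**
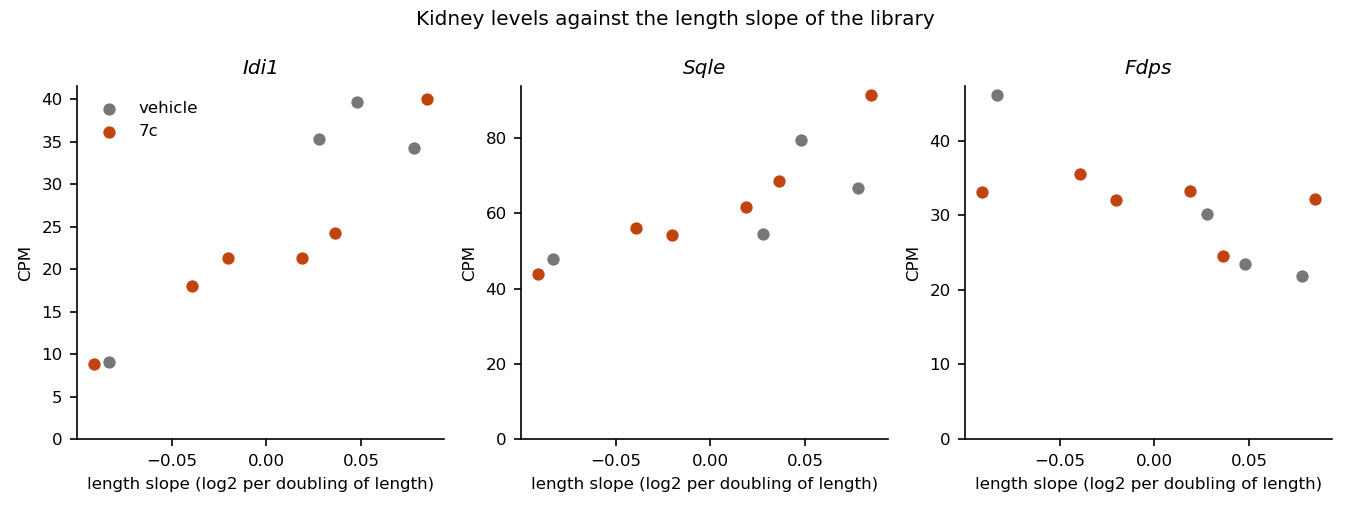
Level of Idi1, Sqle and Fdps in CPM in the 10 kidneys against the length slope of the library, vehicle in grey and 7c in red. Idi1 and Sqle rise with the slope and Fdps falls, and the 2 libraries at the left end are vehicle kidney 2 and 7c kidney 5.

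Without those 2 kidneys, a choice made after the data were seen, the pattern of Fdps changed. Its r was -0.39 with Sqle, -0.30 with Idi1, -0.02 with Cyp51, 0.05 with Hmgcs1, 0.36 with Insig1 and 0.51 with Srebf2. Idi1 with Sqle had 0.82, Idi1 with Cyp51 0.25 and Sqle with Cyp51 0.13. In the same 8 kidneys the 7c estimates of the 7 genes ranged from -0.55 to 0.33, with 0 past the threshold.

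The mean deviations in liver and kidney were set side by side by replicate number. In kidney they were 0.47, -0.82, 0.10 and 0.25 in vehicle libraries 1 to 4 and 0.33, 0.12, 1.10, -0.05, -0.96 and -0.54 in 7c libraries 1 to 6. Number 3 of the 7c group was highest in both tissues. Pearson's r between the tissues was 0.37 (rho = 0.54, n = 10). Without the 2 livers farthest from the median r was -0.18, so that its sign depended on which libraries were included.

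All 7 genes are protein-coding and their positions are given on GRCm39 with GENCODE M39. Hmgcs1 lies at chr13:120151915-120170470 and Idi1 at chr13:8935537-8942487, Sqle at chr15:59186869-59203043 and Srebf2 at chr15:82031382-82093201, and Insig1 at chr5:28276315-28283668, all on the plus strand. Fdps lies at chr3:89000888-89019213 and Cyp51 at chr5:4123416-4154751 on the minus strand. Of these genes, 6 overlap an annotated gene on the opposite strand, among these Nim1k for Hmgcs1, Washc5 for Sqle, Akap9 for Cyp51 and Shisa8 for Srebf2, and Fdps overlaps only a small gene on its own strand. The libraries kept strand, and whether the counting used it is not given in the sources used here, so that reads from such pairs may not be separated.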

How the data were processed

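Polyadenylated RNA of liver and kidney was sequenced from stranded libraries, and per the labels the authors aligned reads with STAR 2.7.11b to GRCm39 and counted them with featureCounts 2.0.6. The table they deposited lists raw counts for 57010 genes. The annotation release, strand setting and treatment of reads with several positions are not given in the sources used here. Symbols, positions and exon lengths came from GENCODE M39, which matched 56310 genes.

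A gene was tested where 50% or more of a tissue's libraries held 10 or more counts. Tests used edgeR 4.0.16 (R 4.3.3) with TMM scaling, its quasi-likelihood F-test on treatment alone, and p-values adjusted by Benjamini-Hochberg over every gene tested, with a threshold of 0.05. The tissue effect in vehicle mice and the interaction were fitted in the same way. CPM used TMM within a tissue unless both tissues are named. Likeness was computed on log2 CPM (prior count 2) less the group means. The labels call the samples biological replicates. Alternatives tried were DESeq2 1.42.0, limma 3.58.1 with voom weights, RLE size factors, the likelihood ratio test, other filters, a replicate block, 1 fit of all 20 samples, a prior count of 0.5, Spearman's rho and leaving out each replicate. The fits were tested on simulated data.

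The 7 genes and the gene lists were chosen with earlier results of these data known. Genes outside the 7 were named by smallest p (4 per comparison with 7c and for the interaction, 6 for the tissues) or highest likeness (5 per tissue), as well as marker genes. Mvd, Lbr, Insig2 beside likeness, and the other list genes named by their likeness or as exceptions were chosen after their values were seen. Of the genes in the lists or named by the rule, 5 are not reported here. Promoter windows of 250 bases came from RefSeq on GRCm38.p6.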

Additional observations from a re-analysis of the deposited data

Results flagged for a closer look

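Single libraries were compared with the rest of their group in 82 groups of 4 or 6 samples, of which about 5% would be marked by chance, and 5 were marked. Idi1 was 9.02 CPM in vehicle kidney 2, where the other vehicle kidneys were at 34.3 to 39.7 CPM. In the same library Pmvk was 15.1 CPM, above the 7.01 to 7.86 CPM of the others, and this is the library with a length slope of -0.083. Fdps was 24.6 CPM in 7c kidney 6, where the other 7c kidneys were at 32.1 to 35.5 CPM. Lcat was 421 CPM in 7c liver 3, above 356 to 379 CPM in the other 7c livers, and Soat2 was 38.6 CPM in 7c liver 2, below 51.8 to 61.6 CPM.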

How the results depend on the processing

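None of the 7 genes passed the threshold for 7c in liver, in kidney or in the interaction under any alternative run, and the smallest adjusted p was 0.641, 0.476 and 0.777. Counts over all genes were more sensitive. In liver (1 gene) they were 6 with DESeq2, 7 with the likelihood ratio test, 4 without a filter, 2 with filterByExpr, 4 with all 20 samples in 1 fit and 0 to 2 when a replicate was left out. In kidney (0 genes) they were 18 with DESeq2, 2 with limma-voom, 14 with the likelihood ratio test, 3 without a filter, 18 with all 20 samples in 1 fit, 3 without the 2 kidneys of lowest length slope and 0 to 3 when a replicate was left out. For the interaction (1 gene) they were 16 with DESeq2, 0 with limma-voom, 22 with the likelihood ratio test, 11 without a filter, 4 with filterByExpr and 0 to 6 when a replicate was left out. The cause was not tested.

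Estimates near 0 changed sign. With limma-voom in kidney Insig1 was -0.01 and Sqle -0.0027, and without the 2 kidneys of lowest slope Sqle was -0.01. Leaving out a replicate gave, in liver, -0.0035 to 0.20 for Cyp51 and -0.06 to 0.18 for Idi1, in kidney -0.07 to 0.34 for Fdps, -0.0028 to 0.24 for Hmgcs1, -0.12 to 0.14 for Insig1 and -0.13 to 0.15 for Sqle, and in the interaction -0.05 to 0.45 for Fdps, -0.08 to 0.28 for Hmgcs1 and -0.01 to 0.20 for Srebf2. Between tissues, Srebf2 was -0.06 with RLE size factors and with DESeq2, -0.02 without a filter, -0.60 with the library total alone, and -0.18 to 0.10 when a replicate was left out, and Cyp51 was 0.09 with the library total alone.

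With a block, 0 genes passed in liver and 0 in the interaction, and the calls of the 7 genes did not change. For 7c in liver and in kidney the block was the replicate number, which joins different mice of the treatments. For the interaction and the tissue comparison it was the number within a treatment, which joins a liver with a kidney. Same-numbered liver and kidney deviated together with r of 0.001 to 0.173 and a median of 0.083. Other numbers had -0.121 to 0.075 with a median of -0.026, so that the ranges overlapped. The tissue and interaction tests reported above did not pair the organs. For 8 of 10 livers the most similar kidney had their own number, a hint from the data and not from the design. With 6 and 4 mice, the 95% intervals of the 7 genes still include liver rises of up to 1.74-fold for Sqle and kidney falls to 0.414 of vehicle for Idi1.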
